A study of Sus scrofa with 23 samples.

Results

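The glycolytic enzymes considered here are 10 genes of the pathway from glucose to lactate: HK2, GPI, PFKM, ALDOA, GAPDH, PGAM1, PGAM2, ENO3, PKM and LDHA. Their messenger RNA was measured in the Longissimus, a long back muscle, of 23 pigs at 115 kg body weight, with 1 single-colour Agilent array for each pig. Probes were chosen by the name or the description that the array files give them (PKM also under its older name PKM2). This found 8 of the 10 genes, on 15 probes, among 4664 named genes on the array. ALDOA had no probe by this rule and is not analysed here. PGAM1 had none by it either, but 2 probes were tied to PGAM1 through a gene number, and 1 further probe each to GAPDH and PKM through their descriptions. These 4 probes are described separately and enter no count of members.

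The animals belonged to lines of low and of high residual feed intake (RFI), which is intake beyond what growth and maintenance call for. The low-RFI group (RFIneg, 7 pigs) and the high-RFI group (RFIpl, 8 pigs) ate ad libitum. The restricted group (RFIplR, 8 pigs) was of the high line and received feed at the level of the low line. Sex and age were not given in the labels used here, and no treatment other than the feeding level was named. The low line was not fed at another level, so line and feeding cannot be crossed.

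In glycolysis, glucose is phosphorylated by hexokinase, rearranged by GPI, phosphorylated again by phosphofructokinase and split by aldolase. The resulting trioses are oxidised by GAPDH and passed through phosphoglycerate mutase, enolase and pyruvate kinase to pyruvate, which lactate dehydrogenase can reduce to lactate. In pig Longissimus, a muscle of mostly fast fibres, this pathway supplies ATP for brief strong contraction and the lactate that lowers the pH of meat after slaughter. PFKM, PGAM2 and ENO3 are the muscle forms of their enzymes, and PGAM1 is the form found in most other tissues.

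The probes are 60 bases long. All those of ENO3 are shown, the gene whose brightest probe had the least overlap between the free-fed lines. With them stand the PGAM2 probe and the brighter PGAM1 probe, which are named for the 2 forms of a single enzyme. Capitals mark the run of 41 bases that 2 of the ENO3 probes share, so those are not independent readings, while the third ENO3 probe lies elsewhere.
ENO3 A_72_P641194: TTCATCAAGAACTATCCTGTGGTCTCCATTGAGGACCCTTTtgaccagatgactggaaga
ENO3 A_72_P637644: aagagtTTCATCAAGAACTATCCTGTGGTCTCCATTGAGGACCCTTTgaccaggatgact
ENO3 A_72_P035996: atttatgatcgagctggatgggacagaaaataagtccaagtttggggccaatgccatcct
PGAM2 A_72_P260562: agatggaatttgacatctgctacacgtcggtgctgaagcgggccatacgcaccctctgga
PGAM1 A_72_P248117: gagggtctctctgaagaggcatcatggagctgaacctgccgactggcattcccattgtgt

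A level below is the log2 of a probe's processed signal, less the 75th percentile of its array, and a difference is the difference of 2 group means on that log2 scale, with limma's standard error (SE). Each gene is read on the brightest of its probes found by the rule, unless another is named. Of the 8 measured genes, 7 gave signals among the brightest 5% of the 27797 probes that passed the filter on dim spots, well above background on all 23 arrays, and no spot was saturated. HK2 was dimmer and was well above background on 22 arrays. Levels of different probes are not compared, since brightness depends on the probe.

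The share of probes well above background ran from 41.6% to 79.0% of an array, and the 4 arrays of slide 3 were among the lowest. Each of the 6 slides held pigs of all 3 groups. The muscle genes ACTA1 and CKM, encoding skeletal actin and muscle creatine kinase, had mean levels of 10.19 to 10.34 and of 9.98 to 10.15 across the groups. In whole muscle, fewer cells of a type and less RNA per cell cannot be told apart.

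The free-fed groups were compared first, to set the lines against each other. All 8 genes had a positive difference, low-RFI minus high-RFI, though 5 did with the planned normexp background correction. The median was 0.23, with a range from 0.02 for HK2 to 0.30 for ENO3. None passed the threshold of adjusted p 0.05 (0 of 8, limma with Benjamini-Hochberg adjustment over all 27797 probes; smallest adjusted p 0.269), and 0.122% of all probes did. At an unadjusted p under 0.05 there were 4 of 8, all higher in low-RFI pigs, namely ENO3, PGAM2, GPI and LDHA. Of all probes 11.1% met that limit, 7.19% in the higher direction. In the brightest 10% of probes the shares were 24.2% and 20.5%. The median difference was 0.03 over all probes and 0.08 in the brightest 10%, where 68.1% of differences were positive.

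**Figure D1:**
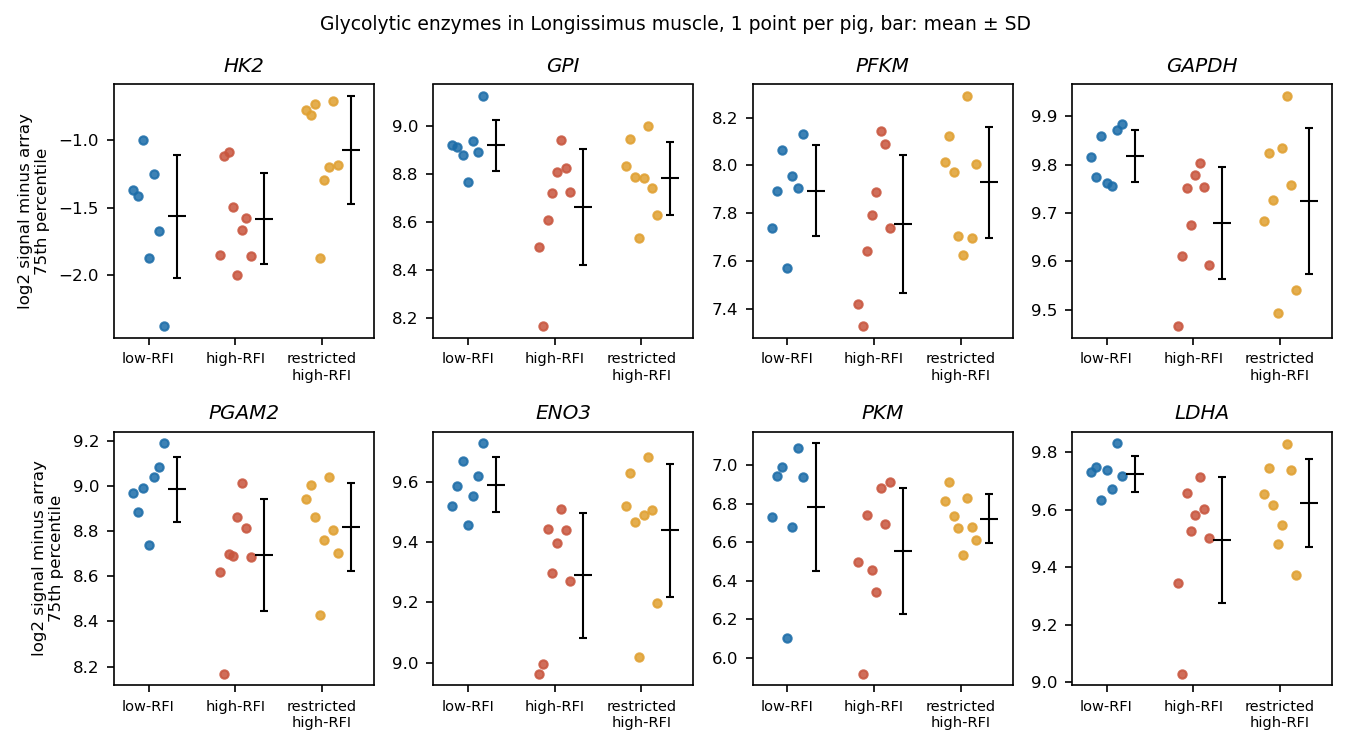
Level of each enzyme gene on its brightest rule probe in each pig of the 3 groups, with vertical axes scaled per gene. Levels are log2 signal less the 75th percentile of the array, and bars give mean ± SD for 7, 8 and 8 pigs. For ENO3, 6 of the 7 low-RFI pigs lie above the highest high-RFI pig, and for HK2 the restricted pigs have the highest mean.

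HK2 encodes hexokinase 2, the insulin-responsive form that commits glucose to the muscle cell. Its lowest, median and highest levels were -2.38, -1.42 and -0.995 in low-RFI pigs, -1.999, -1.62 and -1.09 in high-RFI pigs, and -1.87, -0.999 and -0.71 in restricted pigs. The free-fed groups overlapped over nearly their whole range, and differed by 0.02 (SE 0.20, limma adjusted p 0.986). The low-RFI group held both the lowest pig of all and a pig above every high-RFI pig. The lowest HK2 value was that of low-RFI replicate 7, the array with the lowest share of probes well above background, and without that pig the difference was 0.15.

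GPI, the isomerase that turns glucose 6-phosphate into fructose 6-phosphate, ranged from 8.77 through a median of 8.91 to 9.13 in low-RFI pigs. In high-RFI pigs it ranged from 8.17 through 8.72 to 8.94, and in restricted pigs from 8.54 through 8.79 to 8.999. All 7 low-RFI pigs lay above the high-RFI median, but only 1 of them lay above the highest high-RFI pig. The difference was 0.26 (SE 0.10, 1.20-fold, p 0.0165 in limma, adjusted 0.323), positive on 5 of 6 slides, and the other 2 GPI probes stood at 0.28 and 0.25.

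PFKM encodes muscle phosphofructokinase, the main control step of the pathway. Its levels were 7.57, 7.90 and 8.13 (lowest, median, highest) in low-RFI pigs, 7.33, 7.77 and 8.14 in high-RFI pigs, and 7.63, 7.99 and 8.29 in restricted pigs. No low-RFI pig exceeded the highest high-RFI pig, and the difference of 0.14 (SE 0.13, limma adjusted p 0.759) was smaller than the SD within any group. Its other probe stood at 0.11.

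GAPDH, which oxidises glyceraldehyde 3-phosphate, had levels of 9.76, 9.82 and 9.88 in low-RFI pigs, 9.47, 9.71 and 9.80 in high-RFI pigs, and 9.49, 9.74 and 9.94 in restricted pigs. The low-RFI pigs were the tightest group, with an SD of 0.06 against 0.12 and 0.15, and 4 of 7 exceeded the highest high-RFI pig. The difference was 0.14 (SE 0.08, limma adjusted p 0.511), and the probe outside the rule gave 0.18 (limma adjusted p 0.379). GAPDH is often taken as a reference gene for normalising other measurements.

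PGAM2, the muscle phosphoglycerate mutase, had levels of 8.74, 8.99 and 9.19 in low-RFI pigs, 8.17, 8.70 and 9.01 in high-RFI pigs, and 8.43, 8.83 and 9.04 in restricted pigs. All 7 low-RFI pigs lay above the high-RFI median and 3 above the highest high-RFI pig. The difference was 0.29 (SE 0.11, 1.22-fold, p 0.0138 in limma, adjusted 0.306).

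ENO3, the muscle enolase, showed the least overlap when each gene was read on its brightest probe. Its brightest probe read 9.46, 9.59 and 9.73 in low-RFI pigs, 8.96, 9.35 and 9.51 in high-RFI pigs, and 9.02, 9.50 and 9.68 in restricted pigs. Of the 7 low-RFI pigs 6 lay above the highest high-RFI pig, and the mean difference was positive on 6 of 6 slides, from 0.03 to 0.52. It came to 0.30 (SE 0.10, 1.23-fold, p 0.00737 in limma, adjusted 0.269). The overlapping ENO3 probe shown above gave 0.26 (limma adjusted p 0.349). The ENO3 probe that shares no such run gave 0.37 (SE 0.12, 1.29-fold, p 0.00548 in limma, adjusted 0.239), the largest difference among the 15 probes. On these other ENO3 probes the groups overlapped more. In turn, 2 and 4 of the 7 low-RFI pigs lay above the highest high-RFI pig, each with 5 of 6 slides positive.

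PKM encodes the pyruvate kinase of muscle, which makes ATP and pyruvate. Its levels were 6.10, 6.94 and 7.09 in low-RFI pigs, 5.92, 6.60 and 6.91 in high-RFI pigs, and 6.53, 6.71 and 6.91 in restricted pigs. The free-fed groups each held a pig below the rest, low-RFI replicate 4 and high-RFI replicate 2. The difference was 0.23 (SE 0.14, limma adjusted p 0.588). The other 2 PKM probes of the rule stood at 0.15 and 0.16. The probe outside the rule, which was brighter than these and the first, stood at 0.20.

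LDHA encodes the lactate dehydrogenase subunit of fast muscle, which favours lactate formation. Its levels were 9.63, 9.73 and 9.83 in low-RFI pigs, 9.03, 9.55 and 9.71 in high-RFI pigs, and 9.37, 9.64 and 9.83 in restricted pigs. Of the low-RFI pigs 5 of 7 exceeded the highest high-RFI pig, and their SD was 0.06 against 0.22. The difference was 0.23 (SE 0.09, 1.17-fold, p 0.0204 in limma, adjusted 0.343).

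**Figure D2:**
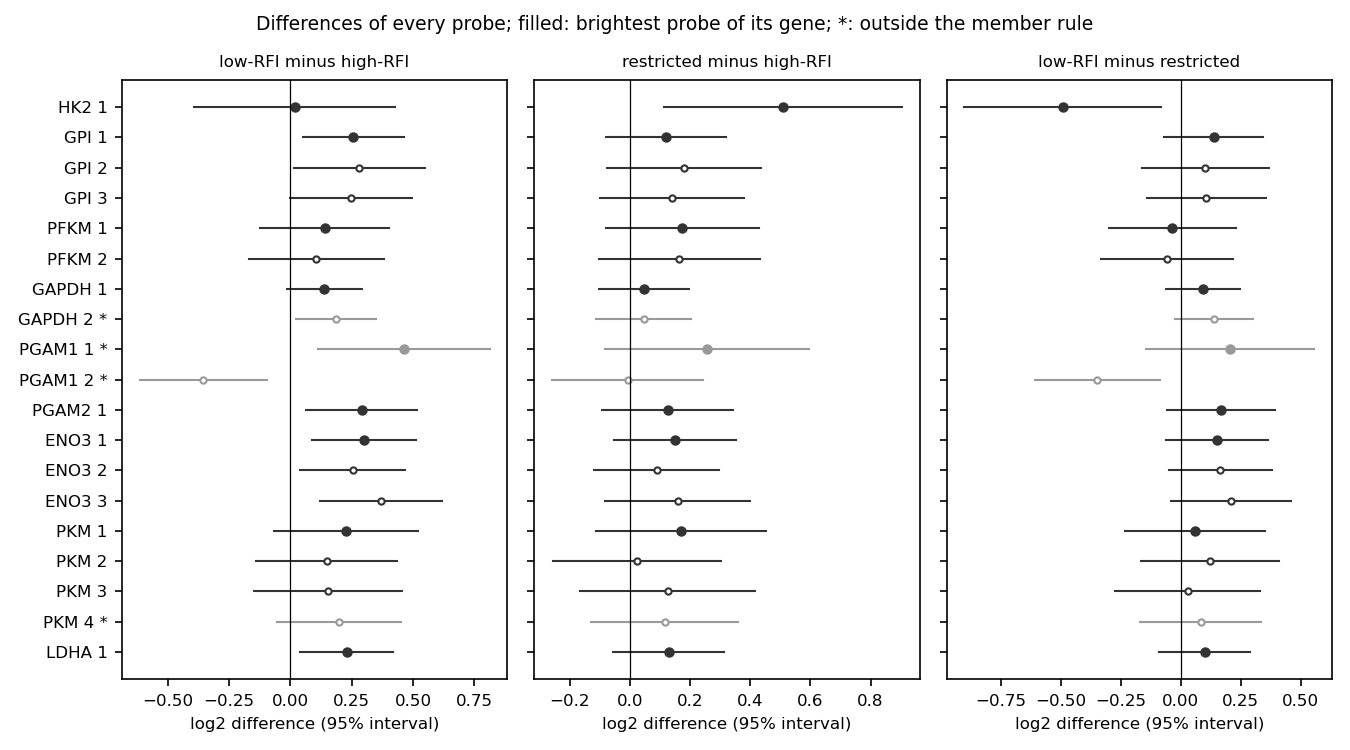
Log2 difference with its 95% interval for each probe of the enzyme genes, in the 3 comparisons (horizontal axes scaled per panel). Filled points are the brightest probe of a gene, for PKM the brightest by the rule. Grey points are the 4 probes outside the rule. All 15 rule probes are positive in the first panel (9 with the planned normexp correction), HK2 is the widest in the second, and the 2 PGAM1 probes lie on opposite sides of 0 in the first.

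Over probes in place of genes, 15 of 15 differences were positive (9 with the planned normexp correction), again with 0 past the threshold. An unadjusted p under 0.05 in limma was reached by 7 of the 15. Of all probes 11.1% met that limit (7.19% in the higher direction), and of the brightest ones counted above 24.2% (20.5%). Those 7 were all probes of ENO3, PGAM2, GPI and LDHA, the genes already named at that limit. They read the same pigs, so they are not evidence independent of the count over genes. The mean of the 8 genes was 7.52 ± 0.11 in low-RFI pigs (SD, n = 7) and 7.32 ± 0.18 in high-RFI pigs (SD, n = 8). It differed by 0.46, -0.02, 0.21, 0.20, 0.16 and 0.09 on slides 1 to 6, and by 0.25 and 0.14 on the first and second scan day. High-RFI replicate 2 weighed on the size of the difference. It had the lowest level of GPI, PFKM, PGAM2, PKM and LDHA in its group, and the median difference of the 8 genes was 0.15 without it, with PFKM at 0.08 and PKM at 0.14. With the planned normexp background correction the median was 0.01, and PFKM, GAPDH and PKM turned negative. Quantile normalization gave 0.10, with all 8 still positive.

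PGAM1, the general phosphoglycerate mutase, gave readings that went opposite ways. The probe shown above read 5.59, 5.81 and 6.06 in low-RFI pigs, 4.38, 5.43 and 5.75 in high-RFI pigs, and 4.88, 5.66 and 6.03 in restricted pigs. The other PGAM1 probe, A_72_P489995, read -0.21, 0.05 and 0.36, then -0.02, 0.47 and 0.76, then 0.07, 0.40 and 0.85, in the same order. The first probe thus read highest and the second lowest in low-RFI pigs. Against high-RFI pigs the differences were 0.46 (SE 0.17, limma adjusted p 0.298) and -0.36 (SE 0.13, limma adjusted p 0.281), and the second was negative on 6 of 6 slides. Against restricted pigs they were 0.21 (limma adjusted p 0.732) and -0.35 (limma adjusted p 0.336), the first being 0.11 without restricted replicate 4. From pig to pig within groups the probes of PGAM1 were correlated at r = -0.56 (23 pigs), and at -0.43 with slide also removed. Every other pair made of a gene's brightest rule probe and another of its probes lay between 0.73 and 0.96. The longest run the PGAM1 probes share is 7 bases. Which of them reads PGAM1 was not tested, so no direction is given for this gene.

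**Figure D3:**
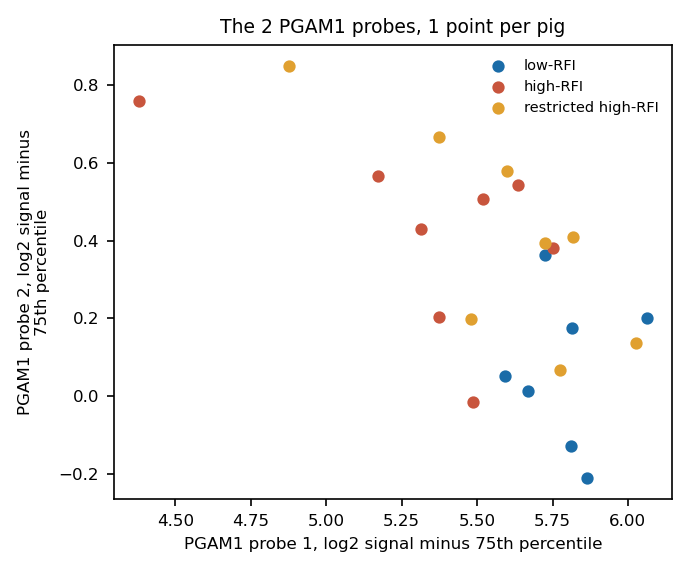
Levels of the 2 PGAM1 probes (log2 signal less the 75th percentile of the array) in each of the 23 pigs, coloured by group; probe 1 is A_72_P248117 and probe 2 is A_72_P489995. Pigs high on the horizontal axis tend to be low on the vertical axis, with r = -0.56 after group means are removed.

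The second comparison asked what restricted feeding changed within the high line. It shares its high-RFI pigs with the first, so the signs of the comparisons are not independent. All 8 differences, restricted minus high-RFI, were positive (1 with the planned normexp correction), with a median of 0.14. The median was 0.01 over all probes and 0.06 in the brightest 10%, where 73.1% were positive. None passed the threshold (0 of 8 in limma, against 0.0036% of all probes). At an unadjusted p under 0.05 there was 1, HK2, against 9.76% of all probes, or 4.95% in its direction.

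HK2 differed by 0.51 (SE 0.19, 95% interval 0.11 to 0.91, 1.42-fold, p 0.0141 in limma, adjusted 0.352). Of the 8 restricted pigs 4 lay above the highest high-RFI pig and 7 above the high-RFI median. The restricted pig that did not was replicate 4, and without it the difference was 0.62. The mean difference was positive on 5 of 6 slides, from -0.01 to 1.14, and was 0.58 and 0.44 on the first and second scan day. With slide as a block it was 0.65 (limma adjusted p 0.169), the highest of 14 alternative settings, of which the lowest gave 0.36. With each pig left out in turn it ran from 0.45 to 0.62. HK2 was read on a single probe, dimmer than those of the other genes.

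The other 7 genes had smaller differences, from 0.05 for GAPDH to 0.17 for PFKM and PKM, with limma adjusted p from 0.671 to 0.912. Their 95% intervals all included 0, and the highest upper limit was 0.45, for PKM. The mean of all 8 genes, HK2 included, was 7.50 ± 0.17 in restricted pigs (SD, n = 8). Its difference from high-RFI pigs was 0.27 and 0.09 on the first and second scan day, where HK2 alone differed by 0.58 and 0.44. On slides 1 to 6 the mean differed by 0.41, 0.13, 0.19, 0.18, 0.41 and -0.16. The median over the 8 genes was 0.07 without high-RFI replicate 2, with GPI and PGAM2 at 0.05, LDHA at 0.06, PKM at 0.08 and PFKM at 0.11. Under the planned normexp correction it became -0.71, with only HK2 positive, while the medians of all probes and of the brightest 10% moved to 0.22 and -0.78. With normexp fitted on the negative control spots, added after the data were seen, it was 0.11 with all 8 positive.

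The third comparison set the lines side by side at the same feed allowance. Of 8 differences, low-RFI minus restricted, 6 were positive, with a median of 0.10 against 0.02 over all probes. Quantile normalization gave a median of 0.02 with 5 positive, and the planned normexp correction 0.70 with 7 positive. Under that correction the medians of all probes and of the brightest 10% were -0.14 and 0.63. None passed the threshold (0 of 8 in limma, against 0.162% of all probes), and 1 had an unadjusted p under 0.05, HK2, against 10.2% of all probes, or 4.61% in its direction. HK2 stood at -0.49 (SE 0.20, 95% interval -0.90 to -0.08, p 0.0208 in limma, adjusted 0.4). Only 1 of the 7 low-RFI pigs lay above the restricted median. Without low-RFI replicate 7 its difference was -0.36. PFKM, the other gene with a negative sign, stood at -0.04 and turned positive without low-RFI replicate 4 or restricted replicate 6.

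The remaining 6 genes ranged from 0.06 for PKM to 0.17 for PGAM2, and all their intervals included 0. ENO3 stood at 0.15 (SE 0.10, limma adjusted p 0.653), with an interval from -0.06 to 0.36. It was 0.09 without restricted replicate 4, 0.06 with quantile normalization and 0.76 with the planned normexp correction. PKM ranged from 0.01 to 0.17 as low-RFI pigs were left out in turn (replicates 6 and 4), and without restricted replicate 4 PGAM2 was 0.11 and GAPDH 0.06. LDHA was 0.07 without restricted replicate 8. The group means of GPI, GAPDH, PGAM2, ENO3, PKM and LDHA had the same order, low-RFI above restricted above high-RFI, which the planned normexp correction broke by placing restricted pigs lowest. Neither neighbours nor the ends of that order were separated at the threshold of adjusted p 0.05. For HK2 and PFKM the restricted group stood highest. In the F test over all 3 groups 0 of 8 genes passed (smallest limma adjusted p 0.312) against 0.137% of all probes, and 3 had an unadjusted p under 0.05, HK2, ENO3 and PGAM2, against 12.5% of all probes.

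Apart from their group means, the enzymes varied together from pig to pig. Over the 28 pairs of the 8 genes the median Pearson correlation was 0.65 with group means removed (23 pigs), and 0.67 with slide removed as well. It was 0.16 over all pairs of the 554 named genes in the brightest 10% of probes. PGAM2 and GPI were the closest pair at 0.94, followed by GAPDH and ENO3 at 0.91. The points share arrays and scaling, so these values are descriptions. HK2 stood apart: its correlation with the mean of the other 7 was 0.03, against 0.60 for PKM to 0.89 for ENO3, and its 7 pairs ran from -0.15 to 0.23. Its probe was also the dimmest of the 8, at percentile 43.5 of the kept probes. What the dimness of that probe did to the HK2 correlations was not tested. Among the 21 pairs without HK2 the lowest was 0.29, between GAPDH and PKM.

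**Figure D4:**
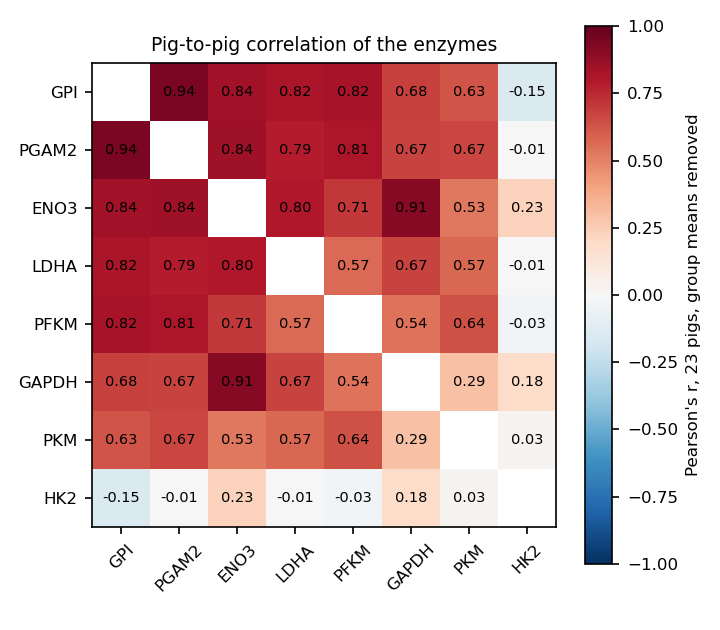
Pearson correlation between the levels of each pair of enzyme genes over 23 pigs after removal of group means, on a colour scale from -1 to 1; diagonal cells are blank. The 7 genes other than HK2 are all positively correlated, from 0.29 to 0.94. The row of HK2, which was read on a dimmer probe, runs from -0.15 to 0.23.

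The lowest pigs were the same across several enzymes. High-RFI replicates 1 and 2 had means over the 8 genes of 7.12 and 7.01, and restricted replicate 4 had 7.18. Low-RFI replicate 4, at 7.28, was the lowest of its group, in which the other 6 pigs lay between 7.51 and 7.64. The highest mean, 7.68, belonged to a restricted pig. The mean's correlation with the share of probes well above background was -0.17 with group means removed, and its correlation with the median level of the brightest 10% of probes was 0.61.

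Among named genes outside the pathway, those whose levels followed the enzyme mean most closely within groups were MYH1 at r = 0.88 (Spearman's rho 0.81), ACTA1 at 0.84 (0.65), TNNI2 at 0.84 (0.74), SLN at 0.82 (0.68) and ATXN1 at 0.82 (0.84), each over 23 pigs. MYH1 encodes a fast myosin heavy chain, a family of near-identical copies whose probes may cross-react, and TNNI2 the fast troponin I. ACTA1 is skeletal actin, and SLN is sarcolipin, which binds the calcium pump of the sarcoplasmic reticulum. The mean of 11 fast fibre genes was correlated with the enzyme mean at r = 0.78 (rho 0.74), at 0.67 without the 2 pigs farthest from the median, and at 0.70 with slide removed as well. For 8 slow fibre genes r was 0.29 (rho 0.31), and 0.11 without 2 such pigs.

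**Figure D5:**
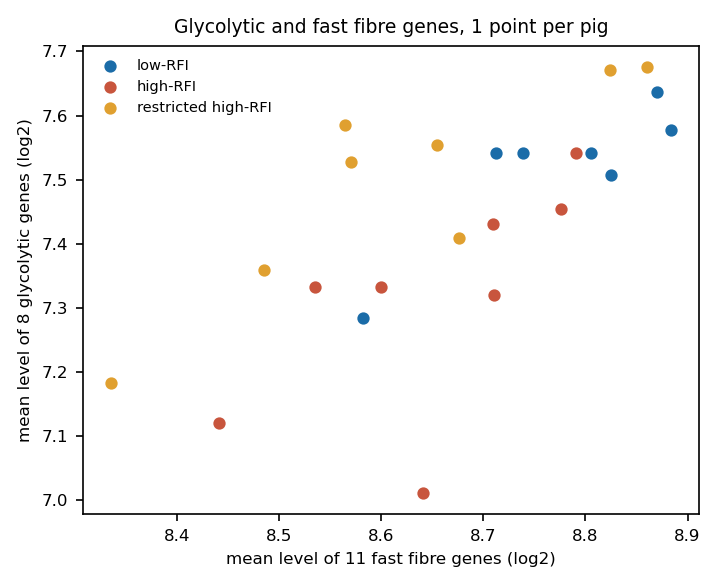
Mean level of the 8 enzyme genes against the mean level of 11 fast fibre genes in each of the 23 pigs, both as log2 signal less the 75th percentile of the array and coloured by group. The 2 means rise together across pigs, and the lowest enzyme mean, 7.01, is that of a high-RFI pig.

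Markers of fibre type and of fat cells were set beside the enzymes' differences, first for the free-fed lines. Of 11 fast fibre genes 10 had a positive difference in low-RFI pigs (median 0.16), but 1 had with the planned normexp correction (median -0.11) and quantile normalization brought the median to 0.01. They included MYH1 at 0.27, TNNI2 at 0.21 and, as the negative gene, the calcium buffer PVALB at -0.25. Their mean level ran from 8.58 to 8.88 in low-RFI, 8.44 to 8.79 in high-RFI and 8.34 to 8.86 in restricted pigs. Of 8 slow fibre genes 3 were positive (median -0.05). All 7 adipocyte markers measured had a negative difference (median -0.53; 6 of 7 with the planned normexp correction), with CIDEC at -1.14, ADIPOQ at -0.85 and FABP4 at -0.53. Their mean level ran from -0.01 to 1.24 in low-RFI, -0.27 to 2.20 in high-RFI and 0.07 to 1.62 in restricted pigs. For restricted against high-RFI pigs 3 of 7 adipocyte markers were positive (median -0.03). Of 11 fast fibre genes 8 were positive (median 0.07), and PVALB at -0.80, MYH2 at -0.10 and TNNT3 at -0.03 were negative. With the planned normexp correction 0 of these 11 were positive (median -0.79). For low-RFI minus restricted pigs 11 of 11 fast fibre genes were positive, with a median of 0.09, but 6 were with quantile normalization. In that comparison 1 of 7 adipocyte markers was positive, with a median of -0.47. None of these markers passed the threshold, and their part in the enzymes' differences was not tested.

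Markers of other cells were also mostly lower in low-RFI than in high-RFI pigs. The counts of positive differences were 1 of 5 for leukocytes (median -0.37), 2 of 6 for fibroblasts (median -0.13) and 1 of 4 for endothelium (median -0.18), and none passed. The 4 general skeletal muscle genes measured were all positive (median 0.15). With quantile normalization 2 of 4 were positive (median 0.002), and with the planned normexp correction 1 of 4 (median -0.08). Of 3 red blood cell genes 0 were found by name, so blood was not assessed. Here too the part in the enzymes' differences was not tested.

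Of 30 further genes of glycolysis and its control, from glucose and lactate transporters to regulatory enzymes and other isozymes, 13 had a probe and 12 passed the filter. For low-RFI against high-RFI pigs 4 were positive and 8 negative, with a median of -0.15. None passed (0 of 12 in limma, against 0.122% of all probes), and 2 had an unadjusted p under 0.05, both lower in low-RFI pigs. Of all probes 11.1% met that limit, with 1087 of 27797 in the lower direction. The 2 genes were SLC16A1, the lactate transporter MCT1, at -0.28 (SE 0.12, limma adjusted p 0.364) and TIGAR, a phosphatase that restrains glycolysis, at -0.42 (SE 0.20, limma adjusted p 0.448). TIGAR was read on a dim probe, well above background on 20 of 23 arrays, and became 0.048 with the planned normexp correction. LDHB, the lactate dehydrogenase subunit of heart and slow muscle, stood at -0.24 (SE 0.12, limma adjusted p 0.455), and its 12 probes all lay between -0.27 and -0.21. TPI1, the triose isomerase that stands within the pathway itself, stood at 0.20 (SE 0.12, limma adjusted p 0.537), with its 5 probes between 0.20 and 0.24. The other 3 positive genes, named after their values were seen, were GPD1 at 0.17, PFKFB1 at 0.14 and PGK1 at 0.14. PGK1 is the phosphoglycerate kinase of the pathway itself, and its 6 probes lay between 0.11 and 0.22. Without high-RFI replicate 2 TPI1 was 0.12, GPD1 0.10, PGK1 0.07 and PFKFB1 0.04, and all 4 turned negative with the planned normexp correction.

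For restricted against high-RFI pigs 5 of the 12 were positive (median -0.03). PFKFB4, which sets the level of the activator of phosphofructokinase, stood at -0.51 (SE 0.17, p 0.00655 in limma, adjusted 0.266), and at 0.075 with the planned normexp correction. TIGAR, FBP1 and PFKFB1 followed at -0.28, -0.26 and 0.14, with limma adjusted p of 0.703, 0.754 and 0.777. With the planned normexp correction they became 0.55, 0.34 and -0.58. Without high-RFI replicate 2 FBP1 was -0.096 and PFKFB1 0.039, and without restricted replicate 6 TIGAR was -0.18. Without restricted replicate 7 FBP1 was -0.17. The 3 FBP1 probes ran from -0.38 to 0.12. Between low-RFI and restricted pigs 0 of 12 had an unadjusted p under 0.05 in limma, against 10.2% of all probes. PFKFB4 stood at 0.36 (limma adjusted p 0.5), SLC16A1 at -0.19, the glucose transporter SLC2A1 at -0.17 and LDHB at -0.12. Without low-RFI replicate 7 SLC2A1 was -0.047, and without restricted replicate 6 LDHB was -0.053.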

How the data were processed

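Total RNA of 23 pigs was labelled with Cy3 and hybridised to Agilent arrays, per the labels' protocols. Spot intensity was background-subtracted by Feature Extraction 10.7.3.1, per the file headers, and was not scaled between arrays. R 2.10.0 is listed in the submitters' processing notes. The authors' deposited log2 table (26410 probes, each column's median 0) equals the log2 processed signal minus a constant per array and was an alternative only.

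Here log2 of the processed signal minus the array's 75th percentile was used. Control spots were left out, as were spots with the scanner's non-uniformity or population-outlier mark, and repeat spots were averaged. Of 43603 probes, 27797 rose well above background on 6 or more arrays of a group and were kept. A single fit of the 3 groups used limma 3.58.1 (R 4.3.3), with Benjamini-Hochberg adjustment over kept probes and a threshold of 0.05. Every enzyme probe had a value on all 23 arrays. Gene names came from the files and RefSeq tables for 11042 probes. No coordinates are given, as the build was not named in the sources used here. Whether probes cross-react with isozymes or pseudogenes was not checked.

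All 10 members, every probe, were named; other glycolysis genes by counts, with the 4 of smallest p per comparison; and the 5 genes most like the members. Members and lists were chosen with earlier results of these data known. The script was tested on simulated data. File headers gave the slide and the day of the scan. The number of arrays limits the precision. Settings varied were the scaling, background correction, filter, slide, scan day, replicate block, variance model, groups fitted, probe summary and each pig.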

Additional observations from a re-analysis of the deposited data

Results flagged for a closer look

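In 60 combinations of probe or mean and group, 9 had a pig standing apart from the rest of its group by Dixon's test at the 95% level, and chance flags about 1 in 20 groups. Low-RFI replicate 4 was the lowest of its group on all 4 PKM probes, at 6.10 (A_72_P257617), 7.82 (A_72_P288214), 5.29 (A_72_P477865) and 5.95 (A_72_P547761), and in the mean of the 8 enzyme genes, at 7.28. High-RFI replicate 2 was the lowest of its group for PGAM2, at 8.17, for the PGAM1 probe A_72_P248117, at 4.38, and for the PKM probe A_72_P288214, at 7.39. Low-RFI replicate 7 was the highest of its group on the GAPDH probe outside the rule, A_72_P321038, at 9.89. The 4 PKM probes read the same RNA of the same pig and count as a single observation.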

How the results depend on the processing

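No enzyme gene and no other glycolysis gene passed the threshold under any alternative, and the number of pigs limits what could pass. The planned normexp background correction moved the median difference of the 8 genes to 0.01 (low-RFI minus high-RFI), -0.71 (restricted minus high-RFI) and 0.70 (low-RFI minus restricted); the cause was not tested. In the first comparison it turned PFKM to -0.087, GAPDH to -0.117, PKM to -0.086, TPI1 to -0.047, PGK1 to -0.099, PFKFB1 to -0.042, GPD1 to -0.078 and TIGAR to 0.048. In the second it turned GPI to -0.73, PFKM to -0.64, GAPDH to -0.77, PGAM2 to -0.70, ENO3 to -0.73, PKM to -0.81, LDHA to -0.68, PFKFB1 to -0.58, PGAM1 (A_72_P248117) to -0.60, PFKFB4 to 0.075, FBP1 to 0.34 and TIGAR to 0.55. In the third it turned PFKM to 0.55, LDHB to 0.50, PFKFB4 to -0.012 and SLC16A1 to 0.002. Fitted on the negative control spots, added after the data were seen, normexp gave medians of 0.18, 0.11 and 0.09. Quantile normalization turned GAPDH in the third comparison to -0.005. For restricted minus high-RFI the PGAM1 probe A_72_P489995, at -0.008, became 0.043 with median centring, 0.001 with the deposited values, 0.015 and 0 with slide as a fixed and random block, and 0 with normexp on the negative controls. Leaving out 1 pig at a time, the medians ran from 0.15 to 0.27, 0.07 to 0.18 and 0.07 to 0.13, HK2 in the first comparison from -0.078 to 0.153, PFKM in the third from -0.078 to 0.019, and this PGAM1 probe from -0.071 to 0.041. Leaving out the 4 arrays of slide 3, added after the data were seen, gave medians of 0.21, 0.14 and 0.09.

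Replicate numbers name different pigs. Same-number pairs had a median residual correlation of 0.05 (22 pairs, -0.30 to 0.33), against -0.01 for other pairs. Of the pigs, 4 correlated best with their own number. Such weak correlations cannot exclude that the numbers pair pigs, and the main fit used no pairing. With the number as a block the medians were 0.23, 0.14 and 0.08, HK2 in the first comparison became -0.011, and the counts over all probes were 28, 0 and 20 in place of 34, 1 and 45. Other counts over all probes that differed most were 0, 0 and 0 with normexp, 18, 1 and 60 for probes well above background on all arrays, 22, 0 and 18 without a filter, 50, 2 and 98 with slide as a random block, 19, 0 and 25 as a fixed block, 52, 0 and 76 with trend and robust variance, and 18, 0 and 15 without slide 3. Without 1 pig they ran from 22 to 40, 0 to 7 and 18 to 68.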
